A study of Mus musculus with 8 samples.

Results

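Leukemia inhibitory factor (LIF) and ciliary neurotrophic factor (CNTF) share a signalling route, and 10 genes of it were followed through the corpus callosum of mice under reduced cerebral blood flow. They were chosen by symbol: the ligands *Lif*, *Cntf*, and *Clcf1*, the receptor chains *Il6st*, *Lifr*, *Osmr*, *Cntfr*, and *Il6ra*, the transcription factor *Stat3*, and its inhibitor *Socs3*. All 10 were found among the 25239 gene symbols measured, and all 10 passed the filter for testing, a mean level of 0.1 CPM or more, as 18123 symbols did. CPM is a gene's read count scaled by the size of its library, as the authors normalized it.

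Mice of the strain C57BL/6 in the labels and C57BL/6J in the study's methods, young adult males, were wild type (WT) or lacked TRPA1, a cation channel, in the whole body (TRPA1-KO). Bilateral common carotid artery stenosis (BCAS) narrows both carotid arteries with microcoils, whereas sham-operated mice received no coils. The comparisons address how the lack of TRPA1 changes white matter under a lasting reduction of blood flow. Each genotype label had 1 BCAS library on each of days 7, 10, and 14 after the operation and 1 sham library on day 14, which made 8 libraries in all. The 3 BCAS libraries of a label were therefore used as its replicates, and the spread between them includes the difference between days. Nothing in the labels says how many animals stood behind a library. The study's methods state that a data point stands for 1 sample from 1 mouse, with the exception of 1 microscopy panel. The libraries held between 7896071 and 12952093 reads on genes.

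The targeted gene went against the labels. *Trpa1* had 1 read in the sham library labelled WT and 0 reads in each of the 3 BCAS libraries labelled WT, which allows up to 3 reads each, whereas the libraries labelled TRPA1-KO held between 3 and 11 reads. Whether these reads lie outside the deleted part of the gene was not tested. The labels are given as deposited, and every direction between genotypes below is a direction between labels. Oligodendrocyte markers, most of them myelin genes, summed to between 12456 and 16660 CPM, but neuronal markers summed to between 5313 and 7014 CPM and markers of striatal projection neurons to between 425 and 1056 CPM, with no marker of these 3 lists at 0 throughout, so RNA of neurons was present beside that of white matter. Both sham libraries lay above all BCAS libraries in the oligodendrocyte sum, at 15168 and 16660 against 12456 to 14116 CPM. The striatal sum did the same, at 784 and 1056 against 425 to 729 CPM. Whether the dissected tissue differed between sham and BCAS libraries, which would affect the comparisons with sham, was not tested. In tissue RNA, fewer cells of a type and less RNA per cell cannot be told apart.

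LIF, CNTF, and cardiotrophin-like cytokine factor 1 (CLCF1) belong to the interleukin-6 family, whose members signal through the shared chain gp130, the product of *Il6st*. LIF pairs gp130 with LIFR, CNTF and CLCF1 add the CNTF receptor to that pair, oncostatin M uses OSMR with gp130, and interleukin-6 uses IL6RA with gp130. The receptor complexes activate JAK kinases, which phosphorylate STAT3. STAT3 then induces *Socs3*, and SOCS3 binds gp130 and shuts the signal off. In brain, this route is known for its part in the reactive state of astrocytes and in the survival and maturation of oligodendrocytes.

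STAT3 binds DNA at a pair of inverted short sites. The letters TTCNNNGAA, which read the same on both strands, were searched in the RefSeq promoters of GRCm38.p6, each from 250 bases before a start to 50 bases after it. A promoter was listed for 9 of the 10 genes, *Clcf1* being the other, with 15 promoters in all. The motif was found in 1 of these promoters, that of *Socs3*, and in 8.30% of all 32851 promoters. The stricter form TTCCNGGAA, which is contained in the first, was found in 1.15% of all promoters and in none of the 15. The stretch of the *Socs3* promoter that holds the motif is shown because *Socs3* is the known feedback target of STAT3. It lies on the minus strand at chr11:117969492-117969540 and its motif, in capitals, begins 154 bases before the start. A match is a run of letters and not a measured binding site.
Socs3 promoter: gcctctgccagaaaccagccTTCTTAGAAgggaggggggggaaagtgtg

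The ligands had few reads, and *Lif* stood near the limit of detection. *Lif* (chromosome 11, 4257557 to 4272514, plus strand) had 7 reads in the sham library labelled WT and 5 in the sham library labelled TRPA1-KO. After BCAS, *Lif* reads numbered 15, 4, and 3 on days 7, 10, and 14 under the WT label, against 5, 5, and 1 under the TRPA1-KO label. In CPM these were 1.33, 0.504, and 0.329 against 0.557, 0.534, and 0.104, beside 0.548 and 0.479 in the sham libraries. The library labelled WT on day 7 was the highest, the groups overlapped, and 2 of the 8 libraries lay at or under a floor of 3 reads, which is worth between 0.235 and 0.378 CPM.

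With 45 *Lif* reads over all 8 libraries, little could be read from these levels. The coefficient of variation (CV) of *Lif* between libraries was 64.2%, where counting reads alone gives 43.2%, and without the library labelled WT on day 7 it was 38% against 49%. The ratio of the WT to the TRPA1-KO label was 2.4 on day 7 with a 95% exact counting interval from 0.828 to 8.43, and 3.16 on day 14 with an interval from 0.254 to 166. Summed over the 3 days, 22 reads stood against 11, a ratio of 1.98 (95% exact interval 0.919 to 4.51). The fitted difference was 0.27 (SE 0.25, limma adjusted p = 0.98, exact permutation p = 0.6). It was 0.03 without the library labelled WT on day 7, 0.71 with a pseudocount of 0.1, and 0.89 with edgeR on the reads. A difference of *Lif* between the labels was thus not detectable at this depth. Such intervals cover counting error only.

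*Cntf* encodes a ligand of the CNTF receptor (chromosome 19, 12763660 to 12765632, minus strand). It was at 2.31, 2.02, and 1.65 CPM on days 7, 10, and 14 in the BCAS libraries labelled WT, from 26, 16, and 15 reads. Those labelled TRPA1-KO were at 1.34, 0.427, and 1.04 CPM, from 12, 4, and 10 reads, and the sham libraries at 0.861 CPM (WT) and 0.479 CPM (TRPA1-KO). All 3 BCAS libraries labelled WT lay above the other 5 libraries. On the log2(CPM + 1) scale *Cntf* was higher by 0.65 (SE 0.23) in the BCAS libraries labelled WT than in those labelled TRPA1-KO, with a limma p of 0.017 and an adjusted p of 0.98. The 2 groups of 3 did not overlap, and the exact two-sided permutation p was 0.1, the smallest that 3 against 3 allows. Without the library labelled TRPA1-KO on day 10 the difference was 0.45 with an unadjusted limma p of 0.08, and DESeq2 gave it an unadjusted p of 0.081. The size of the difference depends on the scale, at 1.12 with a pseudocount of 0.1 and 1.09 with edgeR or DESeq2 on the reads.

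The *Cntf* reads carry a limit of their own. Of its exon bases in the GENCODE M21 annotation, 78.9% (847 bases) are also exon bases of *Zfp91*, a gene on the same strand whose level was between 175 and 204 CPM. How the counting divided reads between these genes is not given in the sources used here, and *Cntf* values are uncertain for that reason. *Zfp91* itself was at 196, 176, and 192 CPM in the BCAS libraries labelled WT and at 180, 189, and 175 CPM in those labelled TRPA1-KO, so that these groups overlapped.

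*Clcf1* (chromosome 19, 4214238 to 4223490, plus strand) reached 5.34 CPM from 60 reads in the library labelled WT on day 7. The other 7 libraries were between 1.01 and 2.56 CPM, and the second highest was the library labelled TRPA1-KO on day 7. On day 7 the ratio of the WT to the TRPA1-KO label was 2.08 (95% exact interval 1.27 to 3.53), whereas on day 10 the value labelled TRPA1-KO was the higher, at 2.14 against 1.01 CPM, with a ratio of 0.472 (95% exact interval 0.18 to 1.12). The fitted difference between the BCAS groups was 0.10 (SE 0.39, limma adjusted p = 0.99, exact permutation p = 0.9), and it changed sign to -0.41 without the library labelled WT on day 7. *Clcf1* shares 8.17% of its exon bases with the annotated gene *AC109138.7* on the same strand, whose symbol is not among those measured.

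**Figure D1:**
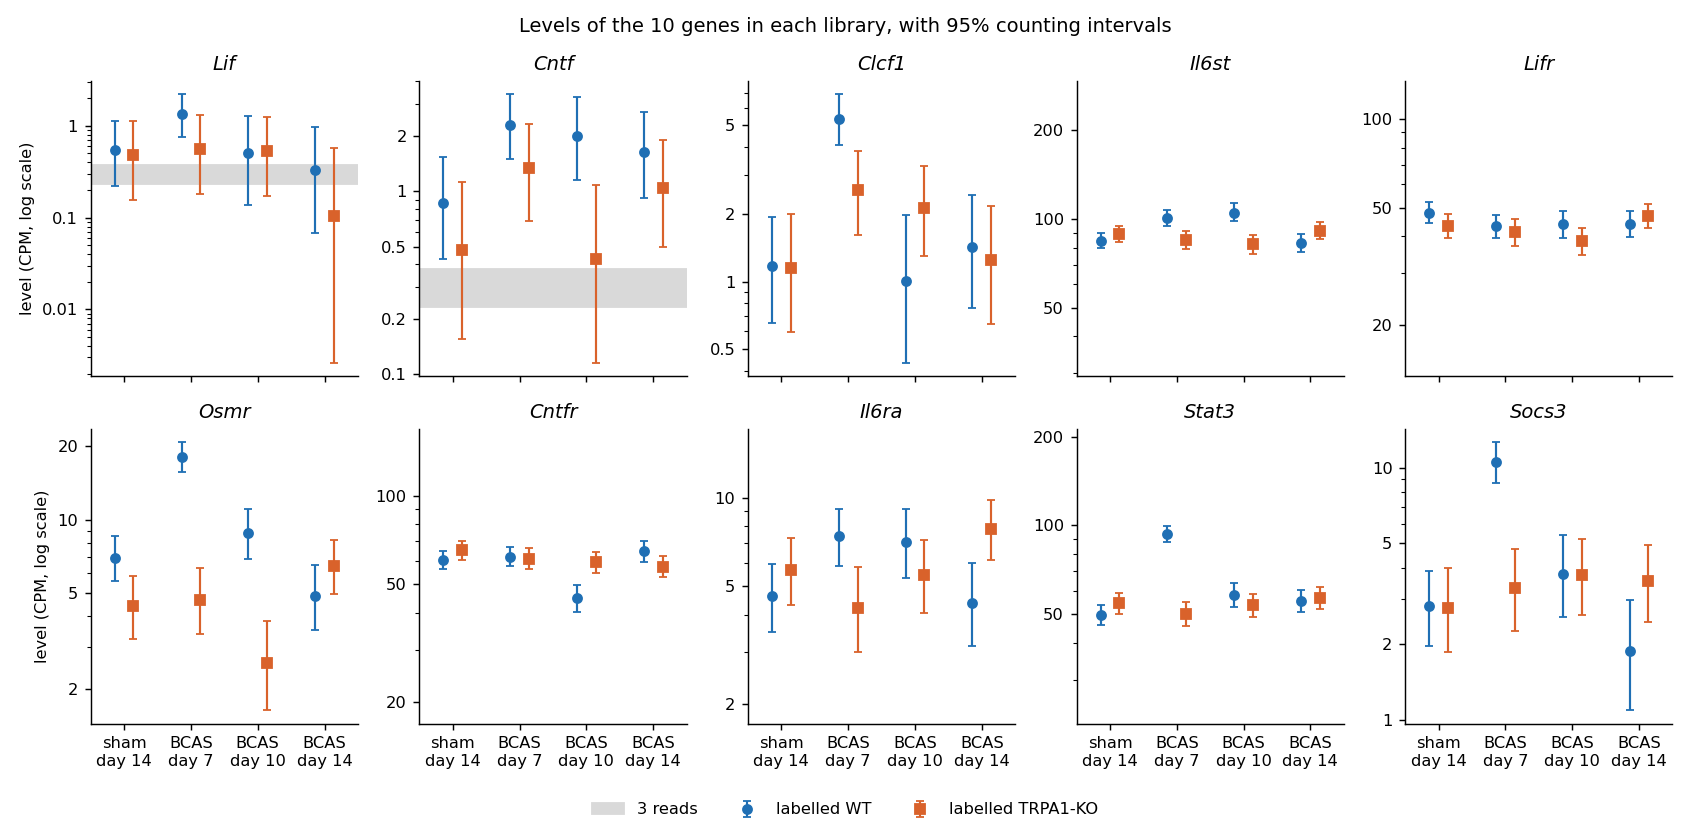
Levels of the 10 genes in each library in CPM on log axes (each panel has its own range), with circles for the label WT, squares for the label TRPA1-KO, and bars for 95% exact counting intervals. The grey band marks the level of 3 reads over the 8 libraries, which *Lif* reaches, and *Osmr*, *Stat3*, and *Socs3* stand highest in the library labelled WT on day 7 at 18.1, 93.4, and 10.5 CPM.

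The shared chains were measured well and varied little. *Il6st*, which encodes gp130 (chromosome 13, 112464070 to 112510086, plus strand), was at 101, 105, and 83.1 CPM on days 7, 10, and 14 under the WT label and at 84.8, 82.0, and 91.3 CPM under the TRPA1-KO label, beside 84.5 (WT) and 89.1 CPM (TRPA1-KO) in the sham libraries. It was higher under the WT label on days 7 and 10 and lower on day 14, and the groups overlapped. With 757 to 1132 reads a library, the ratios of the WT to the TRPA1-KO label were 1.19 on day 7 (95% exact interval 1.08 to 1.3) and 1.29 on day 10 (1.16 to 1.42). The fitted difference of 0.16 (SE 0.10) had a limma adjusted p of 0.98 and an exact permutation p of 0.3.

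*Lifr*, the chain that binds LIF (chromosome 15, 7090614 to 7197489, plus strand), had the lowest CV between all 8 libraries. Its levels were 43.3, 43.9, and 44.1 CPM in the BCAS libraries labelled WT, 41.3, 38.5, and 46.9 CPM in those labelled TRPA1-KO, and 48.1 and 43.4 CPM in the sham libraries labelled WT and TRPA1-KO. The CV was 6.84%, where counting alone gives 4.85%, and without the library labelled WT on day 7 it was 7.37%, above the 5.9% of *Stat3*. The fitted difference between the BCAS groups was 0.05 (SE 0.09, limma adjusted p = 0.98, exact permutation p = 0.7). Each of the 4 ratios between labels, on 3 days of BCAS and in sham, had a counting interval that included 1.

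*Cntfr*, the chain that makes a cell able to respond to CNTF (chromosome 4, 41657498 to 41697089, minus strand), was at 62.1, 44.9, and 64.7 CPM under the WT label and at 61.2, 59.5, and 57.5 CPM under the TRPA1-KO label after BCAS. The sham libraries were at 60.7 CPM (WT) and 65.3 CPM (TRPA1-KO). The day 10 library labelled WT was the lowest of the 8, at 0.754 of the matching TRPA1-KO library (95% exact interval 0.659 to 0.863). The 2 groups overlapped, with a fitted difference of -0.07 (SE 0.13, limma adjusted p = 0.98, exact permutation p = 1). The sign of that difference turned to 0.09 without the day 10 library labelled WT.

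*Osmr*, the oncostatin M receptor chain (chromosome 15, 6813577 to 6874969, minus strand), had the largest fitted difference between the BCAS groups on the log2(CPM + 1) scale, although that of *Cntf* was larger with a pseudocount of 0.1 (1.12 against 1.09) or without the library labelled WT on day 7 (0.58 against 0.51). The BCAS libraries labelled WT were at 18.1, 8.82, and 4.83 CPM on days 7, 10, and 14, from 204, 70, and 44 reads. Those labelled TRPA1-KO were at 4.68, 2.56, and 6.45 CPM, from 42, 24, and 62 reads, and the sham libraries at 6.96 CPM (WT) and 4.41 CPM (TRPA1-KO). The label WT was the higher on days 7 and 10 and in sham and the lower on day 14, so that the groups overlapped.

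The *Osmr* ratios of the WT to the TRPA1-KO label were 3.88 on day 7 (95% exact interval 2.77 to 5.55), 3.44 on day 10 (2.14 to 5.72), 0.748 on day 14 (0.497 to 1.12), and 1.58 in sham (1.09 to 2.31). The group means were 10.6 ± 6.83 CPM (SD, n = 3) for the label WT and 4.56 ± 1.95 CPM (SD, n = 3) for the label TRPA1-KO. The fitted difference was 0.95 (SE 0.41) with a limma p of 0.041 and an adjusted p of 0.98, and the exact two-sided permutation p was 0.2. Without the library labelled WT on day 7 the fitted difference was 0.51, with an unadjusted limma p of 0.16. The unadjusted p of *Osmr* was also above 0.05 without WT day 10 (difference 0.99, p of 0.084), TRPA1-KO day 7 (difference 1, p of 0.075), or TRPA1-KO day 10 (difference 0.66, p of 0.17), and with no filter on low genes (p of 0.11).

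*Il6ra*, the interleukin-6 receptor chain (chromosome 3, 89864059 to 89913196, minus strand), changed places between the days. It was at 7.38, 7.06, and 4.39 CPM under the WT label and at 4.23, 5.45, and 7.80 CPM under the TRPA1-KO label on days 7, 10, and 14, and at 4.62 and 5.66 CPM in the sham libraries labelled WT and TRPA1-KO. The counting interval of the ratio lay above 1 on day 7, at 1.74 (95% exact interval 1.18 to 2.63), and below 1 on day 14, at 0.562 (0.373 to 0.836). Over the 3 days the fitted difference was 0.10 (SE 0.25, limma adjusted p = 0.99, exact permutation p = 0.9). An annotated antisense gene, *Gm42809*, covers 2.8% of the *Il6ra* exon bases, and no source used here says whether the counting used strand.

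*Stat3* (chromosome 11, 100885098 to 100939540, minus strand) was high in a single library. It was at 93.4, 58.1, and 55.4 CPM on days 7, 10, and 14 of BCAS under the WT label and at 50, 53.5, and 56.6 CPM under the TRPA1-KO label, beside 49.7 CPM (WT) and 54.6 CPM (TRPA1-KO) in sham. Apart from the value of 93.4 CPM, all libraries lay between 49.7 and 58.1 CPM. On day 7 the WT to TRPA1-KO ratio was 1.87 (95% exact interval 1.67 to 2.09), on day 10 it was 1.09 (0.955 to 1.23), and on day 14 it was 0.979 (0.866 to 1.11).

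Between the BCAS groups the unadjusted p of *Stat3* was 0.083 with limma, 0.058 with edgeR, and 0.032 with DESeq2. The fitted difference was 0.33 (SE 0.17, limma adjusted p = 0.98, exact permutation p = 0.2), and it was 0.09 without the library labelled WT on day 7. The CV of *Stat3* between libraries was 24.2% with that library and 5.9% without it, where counting alone gives 4.17% and 4.4%. *Stat3* and *Stat5a*, on opposite strands, share 72 exon bases, which is 0.756% of those of *Stat3*, and *Stat5a* was at 1.33 to 3.74 CPM.

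*Socs3* (chromosome 11, 117966079 to 117970047, minus strand), whose promoter stretch is printed above, showed the same library at the top. It was at 10.5, 3.78, and 1.87 CPM under the WT label and at 3.34, 3.74, and 3.54 CPM under the TRPA1-KO label, and at 2.82 and 2.78 CPM in the sham libraries labelled WT and TRPA1-KO. The label WT thus held both the highest and the lowest of the 8 values. The ratio was 3.14 on day 7 (95% exact interval 2.09 to 4.86), 1.01 on day 10 (0.6 to 1.7), and 0.527 on day 14 (0.276 to 0.97). The fitted difference between the BCAS groups was 0.25 (SE 0.41, limma adjusted p = 0.98, exact permutation p = 0.7) and turned to -0.29 without the day 7 library labelled WT.

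The spread between libraries was set beside the spread that counting gives. The 3 ligands had median reads of 5 (*Lif*), 11.5 (*Cntf*), and 14 (*Clcf1*) a library. Their CVs between libraries were 1.49, 1.92, and 3.2 times the CV that counting gives. *Il6st*, *Lifr*, *Cntfr*, and *Stat3* had medians between 426.5 and 857.5 reads, and their CVs were 2.85, 1.41, 2.61, and 5.79 times the counting CV. *Osmr*, *Il6ra*, and *Socs3*, with medians of 54, 57.5, and 32 reads, stood at 5.67, 1.84, and 4.16 times, so that the kinds of gene overlapped in this ratio. Leaving out the library labelled WT on day 7 lowered the ratio to 0.776 for *Lif*, 1.47 for *Clcf1*, 2.69 for *Osmr*, 1.34 for *Stat3*, and 1.2 for *Socs3*, and it lay between 1.51 and 2.76 for the other 5 genes. The lower and upper arms of the 95% counting interval averaged at least 54.5% of the value for *Lif* in each library. This average was at most 10.7% for *Il6st*, *Lifr*, *Cntfr*, and *Stat3*.

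**Figure D2:**
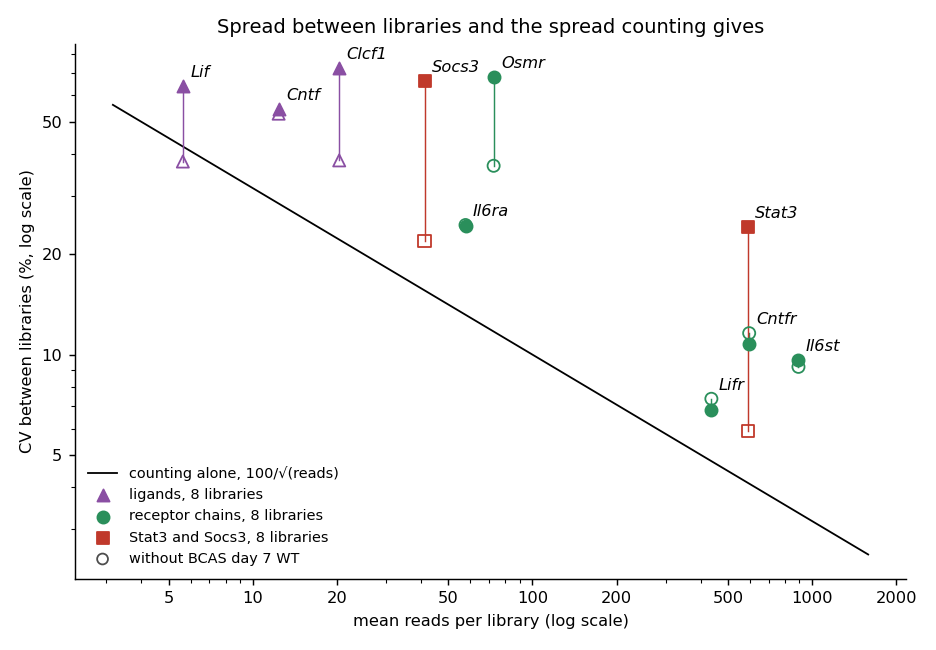
CV between libraries in percent against the mean number of reads a library (both axes log), for ligands (triangles), receptor chains (circles), and *Stat3* and *Socs3* (squares), with the line that counting alone gives. Filled symbols use the 8 libraries, and open symbols leave out the library labelled WT on day 7 (drawn at the same mean reads), without which *Stat3* drops from 24.2% to 5.9%.

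Levels were compared between genes per kilobase of exon, as means over the 8 libraries. *Cntfr* was highest at 21.4 ± 2.31 CPM per kb (SD, n = 8), followed by *Il6st* at 8.12, *Stat3* at 6.18, *Lifr* at 4.06, *Socs3* at 1.4, *Cntf* at 1.18, *Il6ra* at 0.674, *Osmr* at 0.587, *Clcf1* at 0.527, and *Lif* at 0.126. The range of *Cntfr* lay above that of *Il6st* and the range of *Stat3* above that of *Lifr*. All other neighbours in this order overlapped in their ranges over the libraries. The receptor chains that LIF and CNTF need were thus at higher levels per kb than *Lif* and *Clcf1*. They were also above *Cntf* as computed over all its exon bases, but 78.9% of these are shared with *Zfp91*. If reads in the shared bases were not counted, the level of *Cntf* per kb would be higher, so its place in this order is uncertain.

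Between the BCAS libraries of the 2 labels, 2 of the 10 genes, *Cntf* and *Osmr*, had a limma p under 0.05, both higher under the WT label, where 4.20% of all genes tested had one. None of the 10 had an adjusted p under 0.05, where 0.0166% of all genes did. The groups did not overlap for 1 gene, *Cntf*, where they did not overlap for 9.21% of all genes. The label WT was the higher for 9 of the 10 genes with a median difference of 0.20, whereas 50.3% of all genes were higher with a median of 0.00. Without the library labelled WT on day 7, 6 of the 10 genes were higher, the median was 0.05, and *Cntf* was the 1 gene with a limma p under 0.05. Without the library labelled WT on day 14, *Cntf*, *Il6st*, *Osmr*, and *Stat3* had such a p, 4 of 10 genes, where 10.2% of all genes did.

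Taken day by day, the label WT was higher than the label TRPA1-KO for 10 of the 10 genes on day 7, with a median difference of 0.63 on the log2(CPM + 1) scale. On day 10 it was higher for 7 genes (median 0.15), on day 14 for 4 genes (median -0.06), and in sham for 6 genes (median 0.01). Between 48.7% and 51% of all genes were higher under the WT label in these 4 pairs of libraries. Counting intervals of the ratio lay wholly above 1 for 6 genes on day 7, *Clcf1*, *Il6st*, *Osmr*, *Il6ra*, *Stat3*, and *Socs3*, where they did so for 18.2% of all genes tested. They did so for 3 genes on day 10 (*Cntf*, *Il6st*, and *Osmr*), where 11.6% of all genes did, for *Cntfr* on day 14 (11.7%), and for *Osmr* in sham (10.6%). They lay wholly below 1 for *Cntfr* on day 10, where 11.6% of all genes did, and for *Il6ra* and *Socs3* on day 14, where 10.7% did. No interval of the 10 genes lay below 1 on day 7 or in sham, where 18.0% and 9.76% of all genes did. Each such pair compares 2 libraries and carries no replicate check, and the 10 genes of a pair are not independent of each other.

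**Figure D3:**
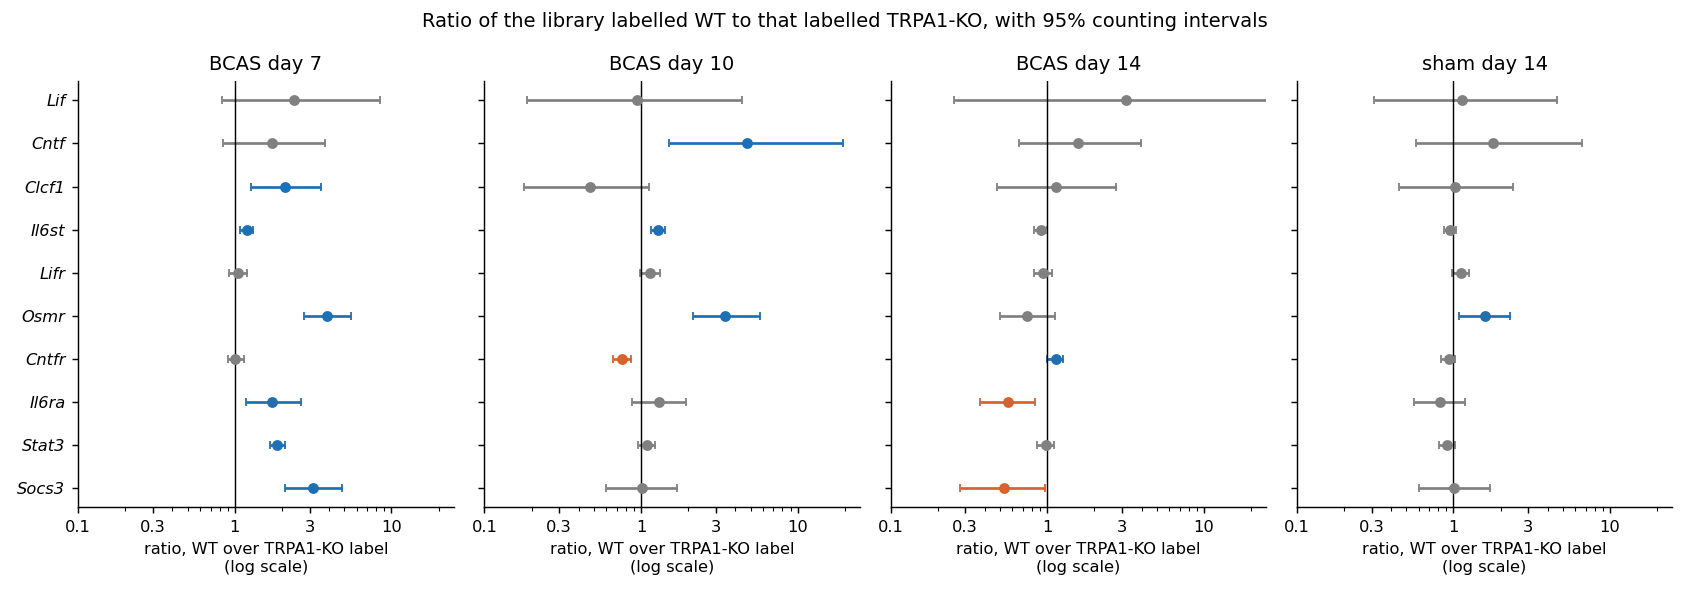
Ratio of the library labelled WT to that labelled TRPA1-KO (log axis) for each gene on 3 days of BCAS and in sham, with 95% exact counting intervals. Intervals wholly above 1 are blue and wholly below 1 orange; the interval of *Lif* on day 14 runs past the axis to 166, and the blue symbols are most frequent on day 7, at 6 of 10 genes, beside 18.2% of all genes tested.

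Against sham, the BCAS libraries labelled WT gave 1 of 10 genes with a limma p under 0.05, *Cntf*, where 5.45% of all genes had one, and no gene (0%) had a limma adjusted p under 0.05. By limma 988 genes had an unadjusted p under 0.05, and by adjusted p edgeR called 0 genes and DESeq2 24, none of them among the 10. *Cntf* was higher by 0.84 (SE 0.24), with a limma p of 0.0052, an adjusted p of 0.81, and an exact permutation p of 0.2, and without the sham library labelled TRPA1-KO by 0.68, with an unadjusted limma p of 0.06. With a pseudocount of 0.1, edgeR, or DESeq2 the difference of *Cntf* was 1.47, 1.54, or 1.56. The groups did not overlap for *Cntf* and *Stat3*, 2 of 10 genes, where 19.9% of all genes did not, and the exact permutation p of 0.2 for each is the smallest that 3 against 2 allows. *Stat3* differed by 0.36 (SE 0.18, limma adjusted p = 0.91), *Osmr* by 0.65 (SE 0.44), and *Socs3* by 0.51 (SE 0.43), and without the library labelled WT on day 7 these were 0.12, 0.20, and -0.04. Leaving out WT day 14 gave 5 of the 10 genes a limma p under 0.05, where 11.1% of all genes had one. Of the 10 genes, 8 were higher than in sham with a median of 0.29, and without the day 7 library 6 were, with a median of 0.07.

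The BCAS libraries labelled TRPA1-KO, set against the same sham libraries, gave 0 of 10 genes with a limma p under 0.05, where 2.74% of all genes had one and 0.00552% had an adjusted p under 0.05. EdgeR and DESeq2 also gave 0 of the 10 genes an unadjusted p under 0.05. The groups did not overlap for *Clcf1* and *Socs3*, 2 of 10 genes, where 18.6% of all genes did not. *Cntf* differed by 0.19 (SE 0.24), *Osmr* by -0.30 (SE 0.44), *Stat3* by 0.03 (SE 0.18), and *Socs3* by 0.26 (SE 0.43). Of the 10 genes 5 were higher than in sham, with a median of 0.01. The day of the sham libraries, 14, limits this comparison too. On that day, 8 of the 10 genes were higher in the BCAS than in the sham library labelled TRPA1-KO. Their median was 0.09, and 49.8% of all genes were higher in that pair.

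Whether BCAS moved the 2 labels differently was tested as the difference of their BCAS effects, with 1 sham library for each label that was assumed to vary like the BCAS libraries. None of the 10 genes had a limma p under 0.05, by edgeR or DESeq2 either, where 1.50% of all genes had a limma p under 0.05 and 0% an adjusted one. The values were 0.46 (SE 0.34) for *Stat3*, 0.40 (SE 0.81) for *Osmr*, 0.32 (SE 0.45) for *Cntf*, 0.24 (SE 0.82) for *Socs3*, 0.21 (SE 0.50) for *Lif*, and 0.23 (SE 0.19) for *Il6st*. *Stat3* and *Il6st* exceeded their standard errors, the others of the 10 did not, and a difference between the BCAS effects of the labels was not detectable in these genes.

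The comparison of the 4 WT libraries with the 4 TRPA1-KO libraries, by label, pooled sham and BCAS, and an exact permutation test can reach 0.029. *Osmr* was at 9.69 ± 5.87 against 4.53 ± 1.59 CPM (SD, n = 4 each), a fitted difference of 0.85 (SE 0.32, limma p = 0.022, adjusted p = 0.99) with an exact permutation p of 0.057. *Cntf* differed by 0.57 (SE 0.22, limma p = 0.024, adjusted p = 0.99) with an exact permutation p of 0.086. These 2 of 10 genes had a limma p under 0.05, where 3.94% of all genes did, and none had an adjusted p under 0.05, where 0.0497% did. The groups overlapped for each of the 10 genes, where they did not for 2.46% of all genes. Without the library labelled WT on day 7, 0 of the 10 genes had a limma p under 0.05, with *Osmr* at 0.53 and *Cntf* at 0.46. The unadjusted p of *Osmr* was also above 0.05 without TRPA1-KO day 10 (0.66), and that of *Cntf* without WT day 10 (0.51), TRPA1-KO day 10 (0.47), or the TRPA1-KO sham library (0.48).

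**Figure D4:**
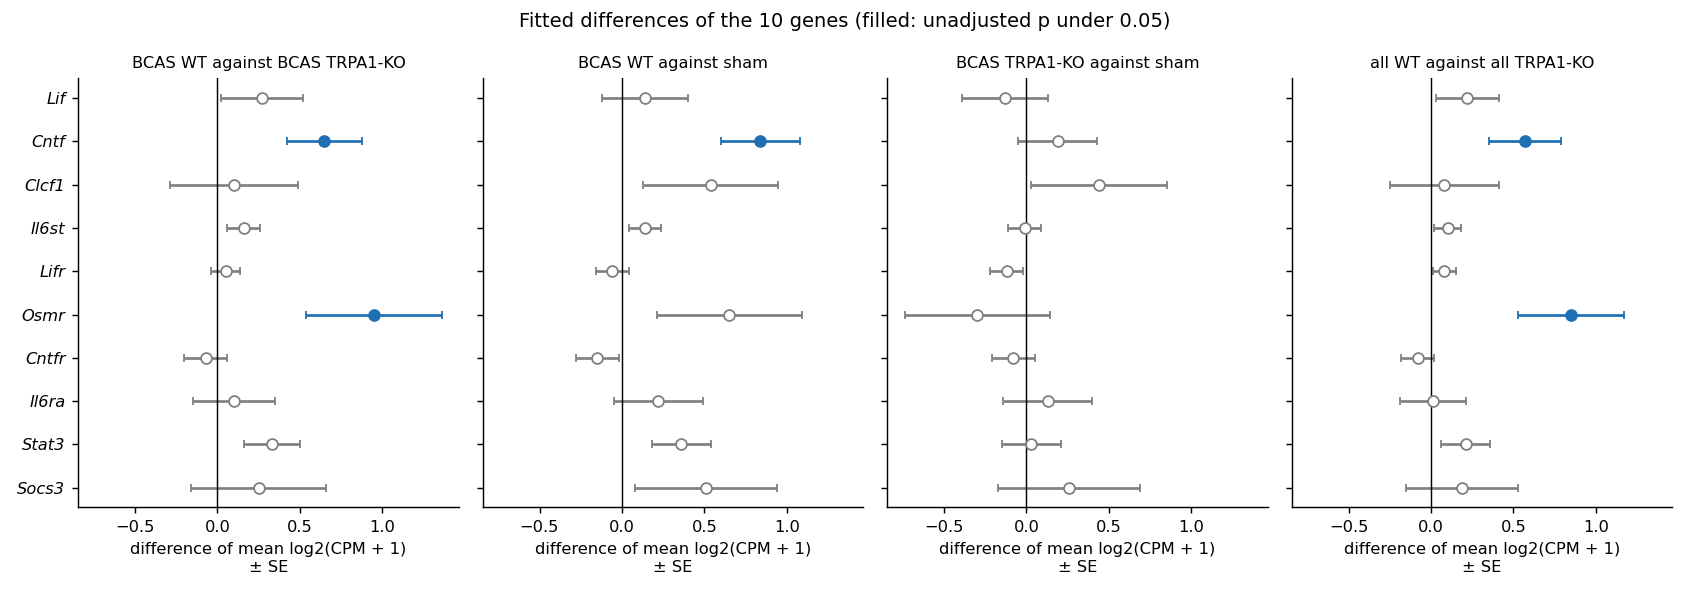
Fitted difference of mean log2(CPM + 1) for each gene in 4 comparisons, with bars for the standard error and filled symbols for an unadjusted limma p under 0.05. *Cntf* is filled in 3 panels and *Osmr* in 2, and the comparisons of BCAS with sham share the 2 sham libraries.

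Among 35 other genes of the route, 33 were tested. Between the BCAS groups none of the 33 had a limma adjusted p under 0.05, and 21 of the 33 were higher under the WT label, with a median of 0.12.

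The other ligands of the family were also at low levels. *Il6* had 5 reads in the library labelled WT on day 7 and was at 0 in the other 7 libraries, where the floor of 3 reads was worth between 0.235 and 0.378 CPM, and it did not pass the filter, and neither did *Il27*. *Osm*, the ligand of OSMR, lay between 0 and 0.445 CPM. *Il11*, *Ctf1*, and *Ctf2* lay at or below 2.01 CPM. None of the 5 tested ligands had a limma p under 0.05 between the BCAS groups.

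The kinases were high and steady. *Jak1* lay between 169 and 202 CPM, *Jak2* between 59.2 and 72.4 CPM, and *Tyk2* between 23.3 and 29.6 CPM, and none of the 3 had a limma p under 0.05 in any of the 5 comparisons. *Jak1*, singled out after its values were seen, was the 1 kinase whose 4 libraries labelled WT, at 187 to 202 CPM, all lay above the 4 labelled TRPA1-KO, at 169 to 184 CPM, where the groups did not overlap for 2.46% of all genes. Of the inhibitors and phosphatases, *Ptpn11*, the phosphatase SHP2 that docks on gp130, lay between 221 and 299 CPM, and *Socs1*, *Socs2*, *Cish*, and *Pias3* lay at or below 25.1 CPM. None of these 5 had a limma p under 0.05 between the BCAS groups.

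Of 15 genes listed as targets of STAT3, 13 were higher under the WT label than under the TRPA1-KO label after BCAS, with a median difference of 0.32, where 50.3% of all genes were higher. None of the 15 had a limma p under 0.05, where 4.20% of all genes did. Without the library labelled WT on day 7, 8 of the 15 were higher, with a median of 0.10, and 1 had such a p, where 3.40% of all genes did. Leaving out WT day 14 gave 6 of the 15 such a p, where 10.2% of all genes had one. *Gfap*, which encodes the filament protein of astrocytes, was at 1415, 1060, and 157 CPM under the WT label and at 167, 169, and 427 CPM under the TRPA1-KO label, and at 200 and 234 CPM in sham. It followed *Osmr* in being high on days 7 and 10 under the WT label and higher on day 14 under the TRPA1-KO label. *Fos* and *Junb*, immediate-early genes, went the other way and were highest under the TRPA1-KO label on days 7 and 10, at 67.8 and 56.6 CPM and at 106 and 113 CPM. Between all libraries of the 2 labels, *Bcl6*, a transcriptional repressor, was higher by 0.24 (SE 0.11) under the WT label, with a limma p of 0.049, and *Pim1*, a kinase, by 0.48 (SE 0.20), with a limma p of 0.034. For both the adjusted p was 0.99 and the exact permutation p 0.11. *Cebpb* had a limma p of 0.035 (adjusted p = 1) for the difference of the BCAS effects, at 1.05 (SE 0.43), and its sham libraries differed by themselves, at 4.46 CPM (WT) and 9.49 CPM (TRPA1-KO).

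The sums of reactive astrocyte and microglial markers were highest in the library labelled WT on day 7, as were *Osmr*, *Stat3*, and *Socs3*. On day 10 under that label *Stat3* and *Socs3* were at 58.1 and 3.78 CPM, beside 49.7 to 54.6 and 2.78 to 2.82 CPM in sham. *Gfap* made up most of the reactive astrocyte sum on days 7 and 10, at 1415 and 1060 CPM. On day 10 *Timp1* lay below both sham libraries, *Steap4* between them, and the other listed reactive markers above both. The summed level of 8 reactive astrocyte markers, 5 of which are also among the listed STAT3 targets, was 2014, 1239, and 208 CPM on days 7, 10, and 14 under the WT label and 226, 222, and 523 CPM under the TRPA1-KO label, and 259 and 300 CPM in sham, and all 8 were highest in the library labelled WT on day 7. The sum of 6 microglial markers was 745, 476, and 291 CPM under the WT label, 278, 291, and 384 CPM under the TRPA1-KO label, and 295 to 304 CPM in sham, and all 6 were highest in the same library. Their part in the levels of *Osmr*, *Stat3*, and *Socs3* was not tested. General astrocyte markers, 8 in number, summed to between 4119 and 5126 CPM. Their sum was highest in the library labelled TRPA1-KO on day 14, where *Slc1a2*, the largest part of it, stood at 3512 CPM. Taken singly, 6 of the 8 were highest in the library labelled WT on day 7. The sum of 6 markers of blood-borne leukocytes, 3 of which passed the filter, was low, at 6.05, 4.91, and 0.11 CPM under the WT label, 0.891, 0.214, and 1.25 CPM under the TRPA1-KO label, and 1.15 to 2.43 CPM in sham. Endothelial markers (234 CPM) and markers of fibroblasts and meninges (47.8 CPM) were also highest in the library labelled WT on day 7, against 180 to 201 CPM and 27.6 to 39.6 CPM in the others, and the neuronal sum was lowest there, at 5313 CPM. The part of these cells in the results was not tested either.

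The library labelled WT on day 7 was the highest of the 8 for 6 of the 10 genes, *Lif*, *Cntf*, *Clcf1*, *Osmr*, *Stat3*, and *Socs3*, where it was the highest for 21.9% of all genes tested. *Il6st* was highest in the library labelled WT on day 10, *Lifr* in the sham library labelled WT, *Cntfr* in the sham library labelled TRPA1-KO, and *Il6ra* in the library labelled TRPA1-KO on day 14.

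**Figure D5:**
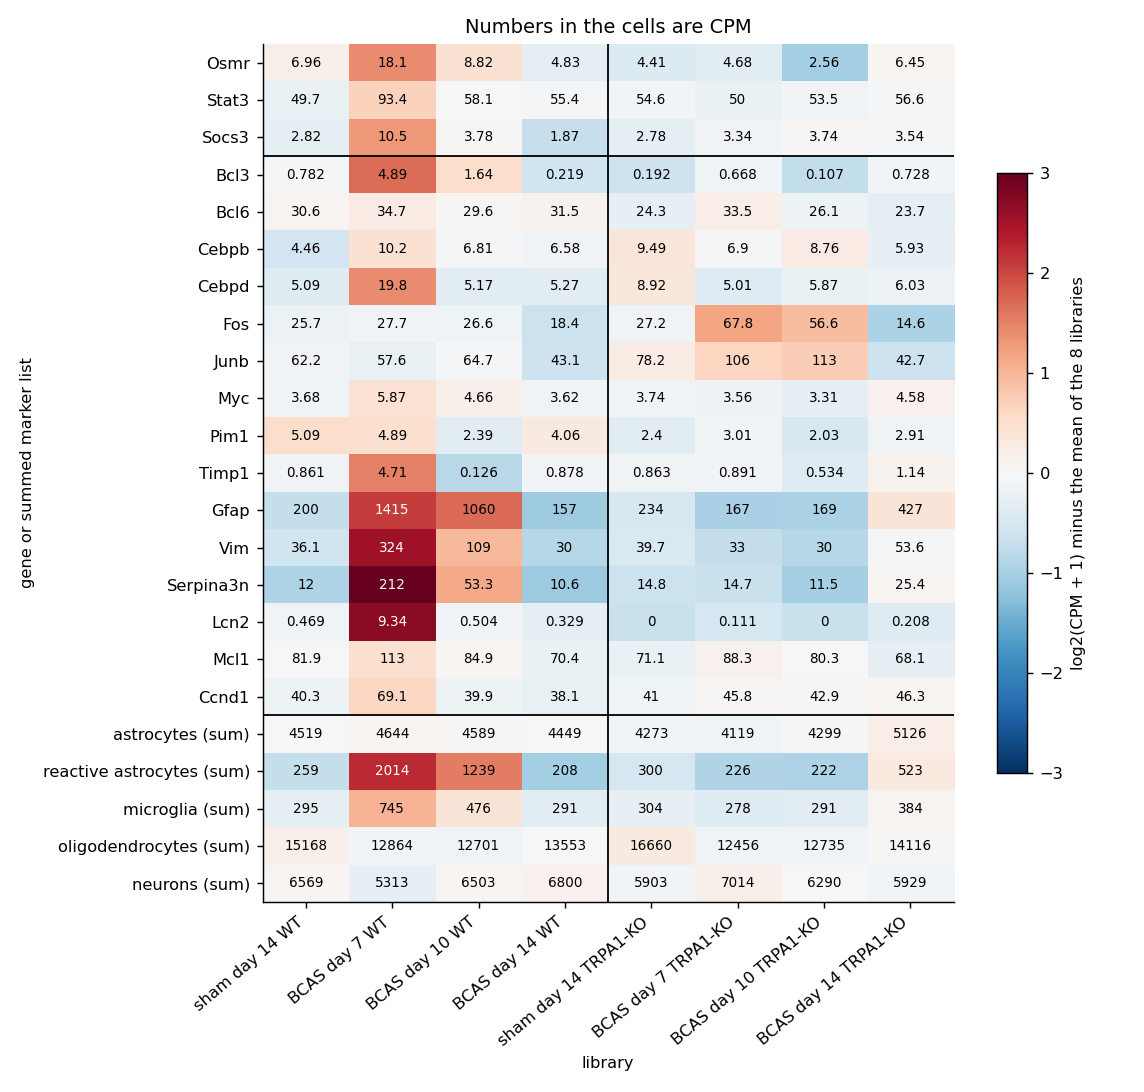
*Osmr*, *Stat3*, *Socs3*, 15 listed STAT3 targets, and 5 summed marker lists in each of the 8 libraries. Cells print the level in CPM and are coloured by log2(CPM + 1) minus the mean of the row; the library labelled WT on day 7 is the reddest column, with *Gfap* at 1415 CPM, and *Fos* and *Junb* are red under the TRPA1-KO label on days 7 and 10.

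The genes whose levels ran most like those of *Osmr*, *Stat3*, and *Socs3* were sought among the 12435 genes whose mean reached 5 CPM, by the correlation of log2(CPM + 1) over the 8 libraries. These libraries share tissue, day, and label, so the values are descriptions. For *Osmr* they were *Serinc3* (Pearson r = 0.994, Spearman rho = 1), *Vsir* (r = 0.985, rho = 0.98), and *Fgd2* (r = 0.973, rho = 0.98), and without the 2 libraries farthest from the median r was 0.98, 0.93, and 0.97. For *Stat3* they included *Hmox1* and *Pdpn*, with r of 0.991 and 0.984, rho of 0.79 and 0.93, and r of 0.80 and 0.83 without the 2 farthest libraries. For *Socs3* they were *Nfya*, *Il4ra*, and *Rap1b*, with r of 0.992, 0.978, and 0.977, rho of 0.79, 0.74, and 0.98, and r of 0.84, 0.57, and 0.90 without the 2 farthest. All 8 of these named genes were highest in the library labelled WT on day 7. *Stat3* and *Socs3* themselves had an r of 0.886 and a rho of 0.55, and r was 0.00 or 0.52 without the 2 libraries farthest from the median of *Stat3* or of *Socs3*.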

How the data were processed

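Polyadenylated RNA from the corpus callosum gave 8 libraries. The authors mapped reads to GRCm38 with HISAT, counted reads per gene with Subread, and normalized them with edgeR. The deposited signal is read counts divided by each library's effective size and scaled to CPM, not logged, and the sums per library lie between 966202 and 1022161. Divided by what 1 read is worth, 100% of the values were whole numbers (tolerance 0.001), which recovered the reads, 7896071 to 12952093 per library. The annotation and strand setting of the counting are not given in the sources used here.

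Libraries were grouped by their labels. Genes whose mean over the 8 libraries reached 0.1 CPM entered limma (version 3.58.1, R 4.3.3, eBayes with a trend) as log2(CPM + 1), with Benjamini-Hochberg adjustment over all 18123 genes. Both sham libraries formed 1 group in the comparisons with sham, which share them. Exact permutation tests were two-sided, with scipy. Counting intervals were 95% exact binomial (Clopper-Pearson) intervals, on the share of the reads of a library for levels and on the split of reads between both libraries for ratios, and 3 reads were taken as the floor. The alternatives tried were another pseudocount (0.1), no filter, a mean of 1 CPM as the filter, equal library medians, edgeR version 4.0.16 and DESeq2 version 1.42.0 on the recovered reads, a block for the day, and each library left out. The limma, edgeR, and DESeq2 fits between the BCAS groups were tested on simulated data. Positions and shared exon bases come from GENCODE M21, and promoters from RefSeq GRCm38.p6.

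The members and lists were chosen with earlier results of these data known. The text names the 10 members, *Trpa1*, genes that overlap a member, listed genes of the route with an unadjusted p under 0.05, and the 3 genes most like *Osmr*, *Stat3*, and *Socs3*. Other listed genes given with values were chosen after their values were seen. Not every gene that these rules name is reported here.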

Additional observations from a re-analysis of the deposited data

Results flagged for a closer look

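In 3 of 20 groups of 4 libraries (10 genes, 2 labels), the highest or lowest library stood apart from the others by more than Dixon's 95% critical value of 0.829. Chance flags about 1 in 20 such groups. *Clcf1* was at 5.34 CPM in the library labelled WT on day 7, with the next highest of the 4 libraries labelled WT at 1.43 CPM. *Lifr* was at 48.1 CPM in the sham library labelled WT, with the next at 44.1 CPM. *Lif* was at 0.104 CPM in the library labelled TRPA1-KO on day 14, with the next lowest at 0.479 CPM, and this value rests on 1 read.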

How the results depend on the processing

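Counts below are members with an unadjusted p under 0.05, and no alternative gave any of the 10 an adjusted one. Between the BCAS groups 2 genes had such a p, *Cntf* and *Osmr*, and 1 did with no filter, *Cntf*. DESeq2 also gave 2 there, but these were *Osmr* and *Stat3*. In BCAS WT against sham 1 did, *Cntf*. There 2 did with equal library medians or edgeR (*Cntf* and *Stat3*) and 3 with DESeq2 (*Cntf*, *Osmr*, and *Stat3*). Leaving out each library in turn gave 0 to 4 genes between the BCAS groups (0 without TRPA1-KO day 10, 4 without WT day 14), 0 to 5 in BCAS WT against sham (0 without the TRPA1-KO sham, 5 without WT day 14, where 11.1% of all genes had one), and 0 to 2 between all libraries of the labels (0 without WT day 7 or without TRPA1-KO day 10). The cause was not tested.

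Signs were followed for all members between the BCAS groups. In the other comparisons they were followed only for *Lif*, *Cntf*, *Clcf1*, *Osmr*, *Stat3*, and *Socs3*. Among these, signs turned only where a library was left out. Between the BCAS groups the log2 differences then ranged from -0.41 to 0.42 (*Clcf1*), -0.01 to 0.13 (*Lifr*), -0.17 to 0.09 (*Cntfr*), -0.08 to 0.30 (*Il6ra*), and -0.29 to 0.71 (*Socs3*). In BCAS WT against sham they ranged from -0.10 to 0.31 (*Lif*) and -0.04 to 0.96 (*Socs3*). In BCAS TRPA1-KO against sham they ranged from -0.22 to 0.03 (*Lif*) and -0.03 to 0.10 (*Stat3*). Between all libraries they ranged from -0.30 to 0.25 (*Clcf1*) and -0.21 to 0.46 (*Socs3*). For the difference of BCAS effects they ranged from -0.03 to 0.37 (*Lif*), -0.42 to 0.41 (*Clcf1*), -0.05 to 0.81 (*Osmr*), and -0.31 to 0.70 (*Socs3*).

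*Cntf* kept its sign between the BCAS groups in 14 of 14 alternatives, with p from 0.01 to 0.081, and *Osmr* in 14 of 14, with p from 0.0031 to 0.17. The days did not pair the libraries (correlations of deviations -0.10, 0.01, and -0.26), and the replicate block left 2 genes with a p under 0.05. Depth limits the ligands most, with 45, 99, and 163 reads of *Lif*, *Cntf*, and *Clcf1* over all libraries.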
